A study of Mus musculus with 16 samples.

Results

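The genes described here carry symbols of cytosolic ribosomal proteins or their paralogs. All encode proteins except Rps4l, which RefSeq lists as a transcribed pseudogene. They were taken as the transcript clusters (the probe sets of 1 gene locus on an exon array) that carry a single gene symbol of the Rpl, Rps or Rplp form with a number, which gave 19 of the 14860 genes tested. The 19 comprise 15 genes of core ribosomal proteins, namely Rpl4, Rpl8, Rpl10a, Rpl22, Rpl23, Rpl31, Rpl35a, Rpl37, Rplp0, Rps3, Rps9, Rps15, Rps18, Rps20 and Rps24, and 4 paralogs, namely Rps27l, Rpl3l, Rpl39l and Rps4l. A further 33 transcript clusters carry several symbols of which at least 1 fits the same form, 27 different ribosomal symbols in all; these cannot be assigned to 1 gene and are given below only as counts.

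RNA came from 16 mouse samples, 1 array each, and 4 groups were compared. Myc-induced B lymphoma cells from lymph nodes comprised 6 samples with the p53 genotype 246/-, here p53-246 lymphomas, and 6 with -/-, here p53-null lymphomas. Normal splenic B cells comprised 2 p53-246 and 2 p53-null samples. All mice were of a C57BL6/129 hybrid background, no group carries a wild-type p53 allele by its label, and the series title speaks of mutant p53. Normal and lymphoma B cells were enriched by magnetic depletion of other cells. The sources used here do not say how Myc was induced. Lymphoma and normal cells differ in tissue of origin as well, so cell type and tissue cannot be told apart. The labels do not state whether each sample is its own mouse, and the p-values therefore cover only the spread seen between these samples, which may be technical.

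A cytosolic ribosome joins a small subunit, which holds the mRNA and reads its codons, to a large subunit, which forms peptide bonds and binds elongation factors at a stalk. Messenger RNAs of ribosomal proteins are among the most abundant of a dividing cell, and most begin with a pyrimidine-rich stretch through which mTORC1 and Larp1 control their translation. Myc is known to raise transcription of ribosomal protein genes and of the nucleolar genes that build ribosomes. Some free ribosomal proteins bind and inhibit Mdm2, the ubiquitin ligase of p53, and Rps27l is known as a gene that p53 induces.

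Stretches around the annotated start are shown for the 3 members with the largest differences, Rps27l, Rpl37 and Rplp0, and for Rps9, which had the smallest. Each runs from 120 bases before to 30 bases after the RefSeq start, 5′ to 3′, on build GRCm38.p6. Capitals mark the letters of motifs searched.
Rps27l (chr9:66945966-66946115, plus strand): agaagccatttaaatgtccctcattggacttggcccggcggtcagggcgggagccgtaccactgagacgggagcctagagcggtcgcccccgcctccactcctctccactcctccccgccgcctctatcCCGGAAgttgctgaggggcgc
Rpl37 (chr15:5116493-5116642, plus strand): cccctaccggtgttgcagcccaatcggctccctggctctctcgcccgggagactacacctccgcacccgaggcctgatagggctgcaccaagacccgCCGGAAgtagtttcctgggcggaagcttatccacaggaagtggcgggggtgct
Rplp0 (chr5:115559347-115559496, plus strand): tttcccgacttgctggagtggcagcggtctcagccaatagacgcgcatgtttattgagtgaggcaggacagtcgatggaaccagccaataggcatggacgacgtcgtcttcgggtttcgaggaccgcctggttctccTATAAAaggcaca
Rps9 (chr7:3703921-3704070, plus strand): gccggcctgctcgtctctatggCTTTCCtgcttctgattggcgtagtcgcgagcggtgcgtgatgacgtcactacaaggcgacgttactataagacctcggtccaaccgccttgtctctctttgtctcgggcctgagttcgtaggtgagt
The motifs were CACGTG, the E-box that Myc with Max can bind (a palindrome), CCGGAA, the core of ETS factors (both strands), AAGATGG, part of the YY1 motif (both strands), and TATAAA and CTTTCC on the gene's strand only. RefSeq windows were on hand for 16 of the 19 members, with Rpl8, Rps20 and Rps4l missing. CCGGAA was in 5 of the 16, Rpl31, Rpl37, Rpl39l, Rps18 and Rps27l, and in 15.4% of the windows of 11869 tested genes. In the stretches above it lies 5′ of the start of Rpl37 and 3′ of the start of Rps27l. CACGTG was in 1 window, that of Rpl23, against 5.59% of all windows. CTTTCC was in the windows of Rpl4, Rpl23, Rpl39l and Rps9 (6.59% of all). TATAAA was in that of Rplp0 (4.61%), where it lies 3′ of the annotated start. AAGATGG was in 0 of 16 (3.44%). Of the 8 windows of genes that rose in lymphoma, 3 held CCGGAA, as did 2 of the 8 others. The letters in a window are a description and do not show a binding site.

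The values are log2 intensities, so a difference of 1.0 is a doubling. Brightness depends on each probe set, so levels are compared here between samples for 1 gene and not between genes. A background level was set at 5.17, the 95th percentile of the means of 799 olfactory and vomeronasal receptor genes. Of the 19 members, 12 had all 4 group means above this level, and Rpl37, Rplp0 and Rpl35a had some means under it. Rpl31, Rps15, Rpl3l and Rpl39l lay under it in all 4 groups, as did 43.8% of all genes. Rpl3l and Rpl39l are known as paralogs of muscle and testis, but Rpl31 and Rps15 encode core proteins, and their low values leave little signal in which a difference could be measured. Ribosomal protein genes also have many near-identical processed pseudogenes, and how far pseudogene transcripts contribute to these values was not tested. In bulk samples, fewer cells of a type and less RNA per cell cannot be told apart.

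**Figure D1:**
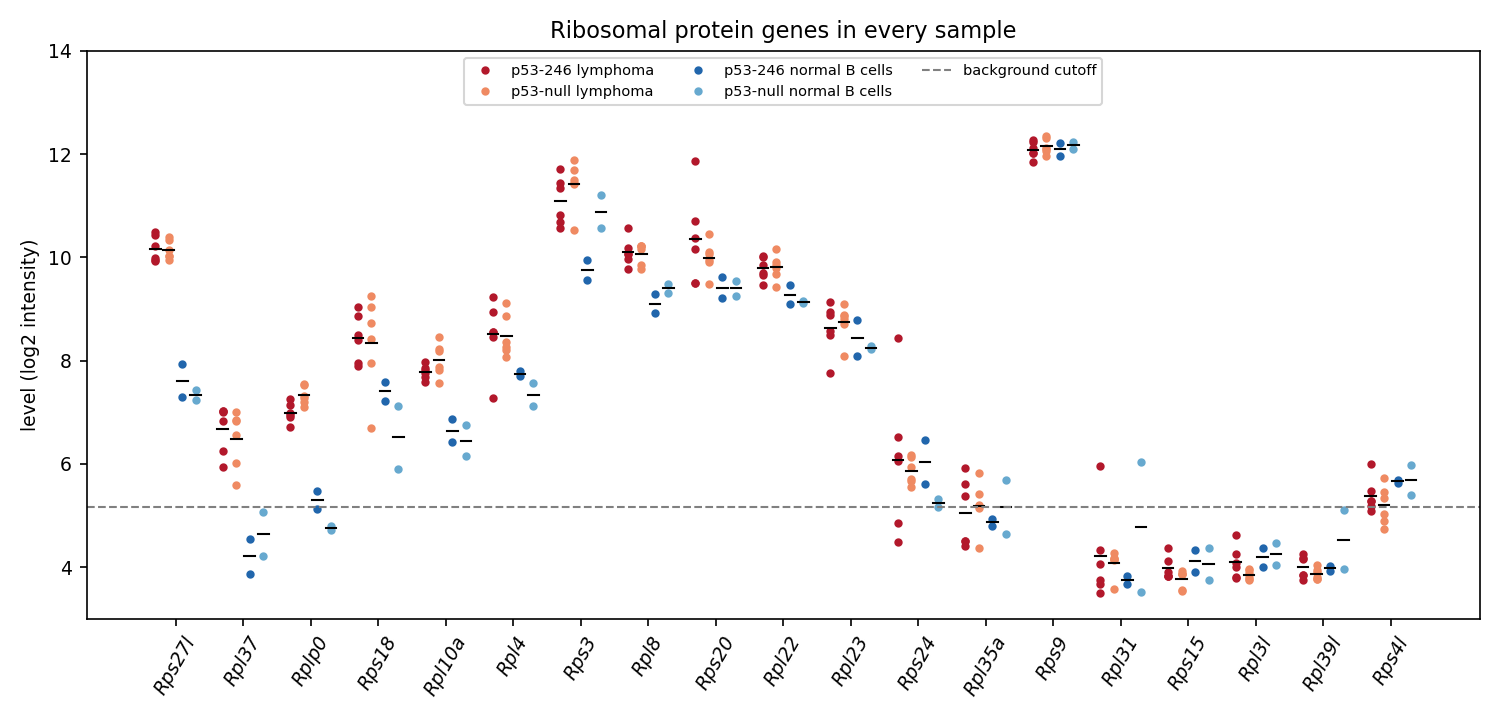
Level of the 19 ribosomal protein genes (log2 intensity, vertical axis) in every sample, with 1 point per sample, a bar at each group mean and genes ordered by the difference between lymphoma and normal cells. The dashed line is the background level of 5.17; Rps27l, Rpl37, Rplp0, Rpl10a and Rpl8 are the 5 genes in which all lymphomas lie above all normal samples.

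In lymphoma cells 9 of the 19 genes rose over normal B cells and 0 fell (limma, both genotypes averaged, adjusted p under 0.05). Among all genes tested, 20.4% rose and 17.8% fell. The median log2 difference was 0.59 over the members and -0.09 over all genes. Many genes lie under the background level. In a fit of only the 7289 genes with a mean above that level, 40.6% rose and 22.1% fell, with a median of 0.16. That fit leaves out the members Rpl31, Rpl35a, Rpl39l, Rpl3l and Rps15. In it the same 9 genes rose, and so did Rps20 (adjusted p = 0.0408, limma). In Rps27l, Rpl37, Rplp0, Rpl10a and Rpl8 all 12 lymphomas lay above all 4 normal samples, 5 of 19 members where 13.5% of all genes do so; 0 members lay wholly below (8.74% of all genes). The share of higher genes among all calls depends on the scaling: 3036 rose and 2649 fell as reported, against 3598 and 1768 with each array centred on its median. Centring moved the median over all genes by 0.13, and the members' median lay 0.68 above that of all genes.

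Rps27l, the paralog of the small subunit protein Rps27, had the largest difference. Its level was 9.93 to 10.49 in p53-246 lymphomas (median 10.10) and 9.95 to 10.40 in p53-null lymphomas (median 10.08), against 7.29 and 7.92 in p53-246 and 7.43 and 7.24 in p53-null normal cells. The ranges of the lymphoma genotypes overlapped almost wholly, and neither overlapped normal cells. The log2 difference was 2.68 (SE 0.14, 6.43-fold, adjusted p = 8.0e-11, limma). Of 11 measured genes of a list on p53 and Mdm2, 1 rose and 3 fell (median -0.17), where 20.4% and 17.8% of all genes did. Cdkn2a, which encodes the Mdm2 inhibitor Arf, rose by 1.55 (SE 0.11). Its normal mean of 5.01 lay under the background level, and counted from that level the rise was at least 2.63-fold. Mdm2, Mdm4 and the stress gene Sesn1 fell by 0.60, 0.47 and 0.85. Cdkn1a, a p53-induced cell cycle inhibitor singled out after its values were seen, lay under the background level in both cell types (-0.17, adjusted p = 0.278).

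Rplp0 forms the base of the stalk on the large subunit that recruits elongation factors. It measured 6.98, 6.72, 7.26, 6.90, 6.95 and 7.15 in p53-246 lymphomas 1 to 6 and 7.27, 7.20, 7.09, 7.56, 7.31 and 7.54 in p53-null lymphomas, against 5.47 and 5.13 in p53-246 and 4.72 and 4.79 in p53-null normal cells. Every lymphoma was above every normal sample, and 3 of the 4 normal samples lay under the background level. The log2 difference was 2.13 (SE 0.11, 4.39-fold, adjusted p = 1.3e-10, limma). Counted from the background level instead of the dim normal mean, the rise was at least 3.98-fold.

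Rpl37, a small zinc-binding protein of the large subunit, rose by a similar amount. It was 5.93 to 7.02 in p53-246 lymphomas (median 6.93) and 5.59 to 6.995 in p53-null lymphomas (median 6.69). Normal cells had 4.55 and 3.87 (p53-246) and 4.21 and 5.06 (p53-null), all under the background level. The log2 difference was 2.15 (SE 0.26, adjusted p = 3.5e-06, limma), and counted from the background level the rise was at least 2.66-fold.

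The other large subunit genes that rose were Rpl10a, Rpl4, Rpl8 and Rpl22. Rpl10a, which lies in the mobile L1 stalk where the used tRNA leaves, was 7.58 to 7.97 in p53-246 lymphomas (median 7.79) and 7.57 to 8.45 in p53-null lymphomas (median 8.03), against 6.87 and 6.42 in p53-246 and 6.14 and 6.75 in p53-null normal cells, without overlap. Its log2 difference was 1.35 (SE 0.15, 2.55-fold, adjusted p = 1.2e-06, limma). Rpl8, which contacts the peptidyl transferase centre, was 9.77 to 10.56 in p53-246 lymphomas and 9.77 to 10.22 in p53-null lymphomas, against 8.92 and 9.29 in p53-246 and 9.48 and 9.32 in p53-null normal cells. It rose by 0.83 (SE 0.13, 1.78-fold, adjusted p = 6.3e-05).

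Rpl4, which lines the exit tunnel of the nascent chain, was 7.28 to 9.24 in p53-246 lymphomas (median 8.56) and 8.06 to 9.12 in p53-null lymphomas (median 8.30), against 7.69 and 7.79 in p53-246 and 7.12 and 7.56 in p53-null normal cells. A single lymphoma, p53-246 lymphoma 6 at 7.28, overlapped the normal range, and the other 11 lay above it. The log2 difference was 0.95 (SE 0.26, adjusted p = 0.00775, limma). Where 1 of the 2 normal samples of a genotype is left out, the remaining one is assumed to vary like the other groups. The Rpl4 call was lost without p53-null normal sample 1 (0.84, adjusted p = 0.0540) and with the spread of each array as a covariate (0.62, adjusted p = 0.0767). Rpl22, a large subunit protein known for its role in T cell development, rose by 0.59 (SE 0.13, adjusted p = 0.00152), with 9.46 to 10.03 in p53-246 and 9.42 to 10.17 in p53-null lymphomas, against 9.09 and 9.47 in p53-246 and 9.12 and 9.15 in p53-null normal cells. Of the 12 lymphomas, 10 were above all normal samples.

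Rps18 and Rps3 rose among the small subunit genes. Rps18, a protein of the subunit's head, was 7.89 to 9.03 in p53-246 lymphomas (median 8.45) and 6.69 to 9.25 in p53-null lymphomas (median 8.57), against 7.22 and 7.58 in p53-246 and 5.91 and 7.12 in p53-null normal cells. Only p53-null lymphoma 2, at 6.69, lay within the normal range. Its log2 difference was 1.43 (SE 0.36, 2.70-fold, adjusted p = 0.00392, limma). Rps3, at the mRNA entry channel, was 10.56 to 11.71 in p53-246 lymphomas (median 11.08) and 10.53 to 11.88 in p53-null lymphomas (median 11.47), against 9.56 and 9.95 in p53-246 and 10.57 and 11.21 in p53-null normal cells. Both p53-null normal samples lay within the lymphoma range, and 8 of 12 lymphomas were above all normal samples. The log2 difference was 0.93 (SE 0.23, adjusted p = 0.00377).

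**Figure D2:**
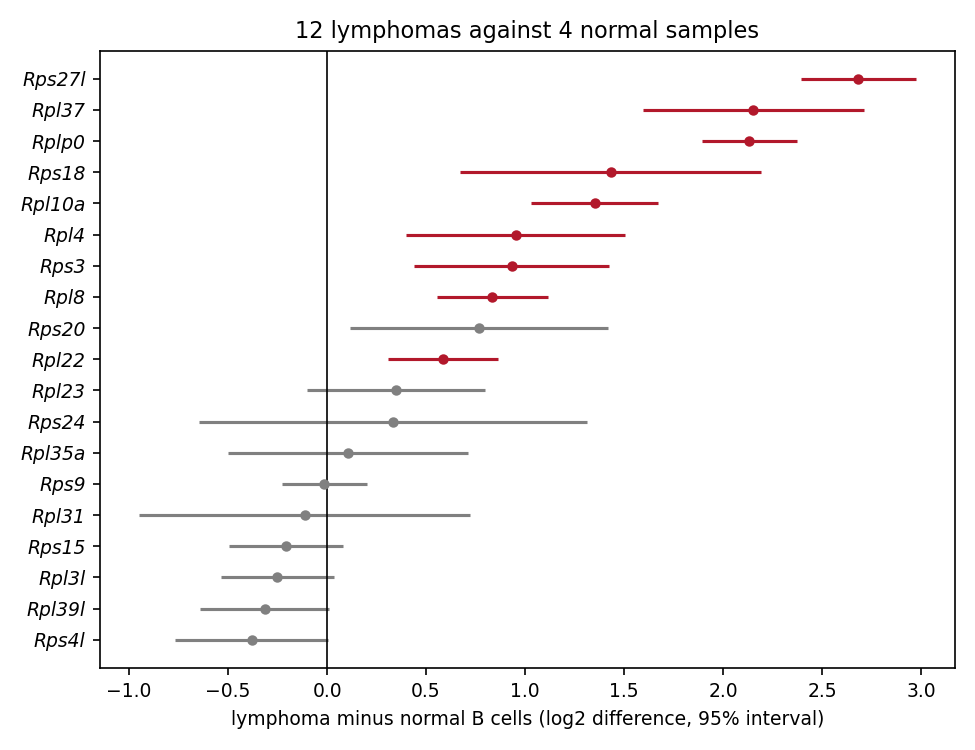
Log2 difference of each ribosomal protein gene between 12 lymphomas and 4 normal samples (horizontal axis, point with 95% interval). Red points are the 9 genes past an adjusted p of 0.05 in limma, grey points the 10 that are not; Rps27l stands at 2.68 and Rps9 at -0.01.

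The other 10 genes did not pass. Rps9, a small subunit protein at the mRNA entry channel, was 11.84 to 12.27 in p53-246 lymphomas and 11.96 to 12.34 in p53-null lymphomas, against 11.97 and 12.22 in p53-246 and 12.23 and 12.10 in p53-null normal cells. The groups overlap almost wholly, and the log2 difference was -0.01 with a 95% interval of -0.23 to 0.20 (adjusted p = 0.930, limma). Rps20, a protein of the small subunit's head, was 9.50 to 11.87 in p53-246 lymphomas and 9.49 to 10.45 in p53-null lymphomas, against 9.21 and 9.61 in p53-246 and 9.55 and 9.25 in p53-null normal cells. Its difference of 0.77 (SE 0.31) had an adjusted p = 0.0601. Rps20 was called higher in 8 of 26 alternatives, among them the fit without p53-246 lymphoma 6, its highest sample (0.62, adjusted p = 0.0245), and the fits without p53-246 lymphoma 1 (0.85, adjusted p = 0.0303), p53-246 lymphoma 4 (0.85, adjusted p = 0.0307) or p53-null lymphoma 5 (0.82, adjusted p = 0.0498). Rpl23, a large subunit protein known to bind Mdm2, was 7.76 to 9.14 in p53-246 and 8.10 to 9.10 in p53-null lymphomas, against 8.09 and 8.78 in p53-246 and 8.28 and 8.22 in p53-null normal cells, a difference of 0.35 (interval -0.10 to 0.80, adjusted p = 0.216). Without p53-246 lymphoma 6 it passed (0.43, adjusted p = 0.0474).

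Rps24 and Rpl35a, both known as genes mutated in Diamond-Blackfan anaemia, had differences of 0.33 (interval -0.64 to 1.31) and 0.11 (interval -0.50 to 0.71). With array spread as a covariate they were 1.10 (adjusted p = 0.0314) and -0.17. The 4 genes under the background level had differences of -0.11 (Rpl31), -0.21 (Rps15), -0.25 (Rpl3l) and -0.32 (Rpl39l). The Rpl31 value was 0.52 without p53-null normal sample 1. Rps4l, which RefSeq lists as a transcribed pseudogene, had -0.38 (SE 0.18, adjusted p = 0.111), with 8 of 12 lymphomas below all normal samples. Leaving out a single sample gave a downward call in 3 cases: Rpl39l without p53-null normal sample 2 (-0.60, adjusted p = 0.000858), Rps4l without p53-246 lymphoma 2 (-0.44, adjusted p = 0.0403) and Rpl3l without p53-246 lymphoma 6 (-0.30, adjusted p = 0.0274).

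Lymphoma and normal cells were next set against each other inside each genotype. In p53-246 cells 6 of the 19 genes rose and 0 fell, where 14.5% and 10.6% of all genes did. In p53-null cells 8 rose and 1 fell, against 17.5% and 14.4% of all genes. Rps27l, Rpl37, Rplp0, Rpl10a and Rpl8 passed upward in both. The group means of these contrasts share no array. Their spread was estimated jointly from all 16 arrays, so the calls are not independent. Rps27l differed by 2.56 in p53-246 and 2.81 in p53-null cells (SE 0.19 each), Rpl37 by 2.47 and 1.84 (SE 0.37 each, with normal means under the background level), and Rpl10a by 1.13 and 1.57 (SE 0.21 each).

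Rps3 passed in p53-246 cells at 1.34 (SE 0.33, adjusted p = 0.00529, limma), against 0.53 in p53-null cells (adjusted p = 0.237). Rpl22, Rpl4 and Rps18 passed in p53-null cells at 0.67, 1.14 and 1.83. The p53-246 values of these 3 genes were 0.51, 0.77 and 1.03, with adjusted p-values of 0.0552, 0.166 and 0.173. None of these differences between the genotypes passed as an interaction, as given below. The Rps3 call in p53-246 cells was lost without p53-246 normal sample 1 (1.14, adjusted p = 0.102).

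Without p53-null normal sample 1, which leaves 1 normal sample of that genotype, the rising members numbered 4, and the share of all genes that rose was 11.6%. The differences of the 4 genes no longer called were 0.65 for Rpl22 (adjusted p = 0.0858), 1.41 for Rpl37 (adjusted p = 0.0535), 0.92 for Rpl4 (adjusted p = 0.275) and 1.23 for Rps18 (adjusted p = 0.261). Without p53-null normal sample 2 the Rpl8 call was lost (0.59, adjusted p = 0.0777). The fall in p53-null cells was that of Rpl39l, at -0.66 (adjusted p = 0.0282). Its values of 3.76 to 4.04 in p53-null lymphomas, against 5.11 and 3.96 in normal samples 1 and 2, lie under the background level throughout, and without sample 1 the difference was -0.09 (adjusted p = 0.898).

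**Figure D3:**
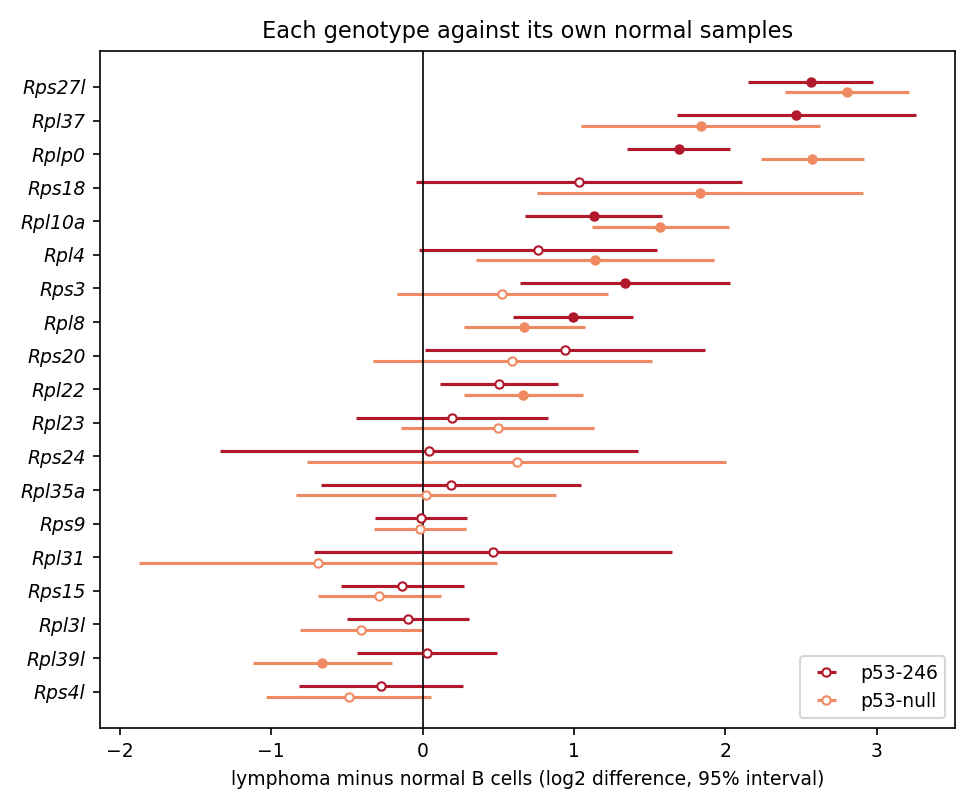
Log2 difference between lymphoma and normal cells within each genotype (horizontal axis, point with 95% interval), p53-246 above p53-null in each pair. Filled points passed an adjusted p of 0.05 in limma; Rps27l, Rpl37, Rplp0, Rpl10a and Rpl8 are filled upward in both genotypes.

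Between p53-246 and p53-null lymphomas 0 of 19 genes passed in limma, as did 0 of all genes (0%). An unadjusted p under 0.05 was reached by 1 member and 445 of the 14860 genes, and an unmoderated linear model also gave 0 calls and 1 member with such a p. That member was Rplp0, which averaged 6.99 ± 0.19 in p53-246 lymphomas and 7.33 ± 0.18 in p53-null lymphomas (SD, n = 6 each). The groups overlap between 7.09 and 7.26. The log2 difference was -0.33 (95% interval -0.58 to -0.09, unadjusted p = 0.00924, adjusted p = 0.994 in limma). Rpl10a (-0.24) and Rps3 (-0.32) were the next genes with lower values in p53-246 lymphomas, and Rps20 (0.36), Rpl3l (0.24) and Rps15 (0.21) were among those with higher values. Rps27l differed by 0.03. The median was 0.03 over the members and 0.03 over all genes.

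Between p53-246 and p53-null normal B cells 0 of 19 genes passed, again as 0% of all genes in limma, with 2 members and 505 genes at an unadjusted p under 0.05, and 0 calls and 2 such members in the unmoderated model. Rps3 had 9.56 and 9.95 in p53-246 normal cells, against 10.57 and 11.21 in p53-null normal cells, a difference of -1.13 (SE 0.40, unadjusted p = 0.0123, adjusted p = 0.999). Rplp0 had a difference of 0.55 (SE 0.20, unadjusted p = 0.0132). Rps18 had 0.89, Rps27l 0.27, Rpl39l -0.56 and Rpl31 -1.02. The last 3 took the other sign when 1 normal sample was left out. Without p53-null normal sample 2 the Rpl39l value was -1.13 with an adjusted p = 0.00820. That fit sets the p53-246 normal samples against p53-null normal sample 1 alone, takes its spread from the other groups and called 35 of all genes higher and 497 lower, and Rpl39l was under the background level in all 16 samples.

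The interaction of genotype and cell type was past the threshold for 0 of 19 members and 0% of all genes in limma, with 2 members and 540 genes at an unadjusted p under 0.05 and, in the unmoderated model, 0 calls and 1 such member. Rplp0 differed between lymphoma and normal cells by 1.69 in p53-246 and 2.57 in p53-null cells, an interaction of -0.88 (95% interval -1.36 to -0.40, unadjusted p = 0.00126, adjusted p = 0.997). Both p53-null normal values of Rplp0 lay under the background level, and counted from that level its difference in p53-null cells was at least 2.16. Rpl39l (0.69), Rps3 (0.81) and Rpl31 (1.15) had the smallest p among positive values, and Rpl10a (-0.44) followed Rplp0 among negative ones. With p53-null normal sample 1 as the only one of its group, the Rpl39l interaction was 1.26 with an adjusted p = 0.00883, in a fit that called 445 of all genes with a positive and 28 with a negative interaction.

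The members varied unequally among lymphomas of 1 genotype. The SD within genotype over the 12 lymphomas was 0.15 for Rps9, 0.17 for Rpl39l, 0.19 for Rplp0, 0.20 for Rps15 and 0.22 for Rps27l. At the other end it was 1.005 for Rps24, 0.74 for Rps18, 0.66 for Rpl31 and for Rps20, and 0.58 for Rpl35a. Over all genes the median SD was 0.23, and 13 of the 19 members lay above it. Rps24 measured 6.06, 4.85, 6.15, 4.48, 6.51 and 8.43 in p53-246 lymphomas 1 to 6, against 5.56 to 6.18 in p53-null lymphomas. The value of 8.43 and the Rps20 value of 11.87 were both in p53-246 lymphoma 6. Rpl22 (10.03), Rps27l (10.49) and Rps3 (11.71) were also at their highest among p53-246 lymphomas there. Rpl4 (7.28), Rpl23 (7.76), Rpl37 (5.93) and Rps18 (7.89) were at their lowest among p53-246 lymphomas in that sample. Its array had the smallest SD of all gene levels, 1.56.

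Rpl31 was high in single samples. Rpl31 was 5.96 in p53-246 lymphoma 4 and 6.03 in p53-null normal sample 1, against 3.50 to 4.33 in the other 14 samples. Rpl35a was 5.93 and 5.69 in these same samples, the highest values of their groups. Other values of Rpl35a were 4.36 to 5.82. The value of 5.82 was in p53-null lymphoma 4, where Rpl31 was 4.28.

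**Figure D4:**
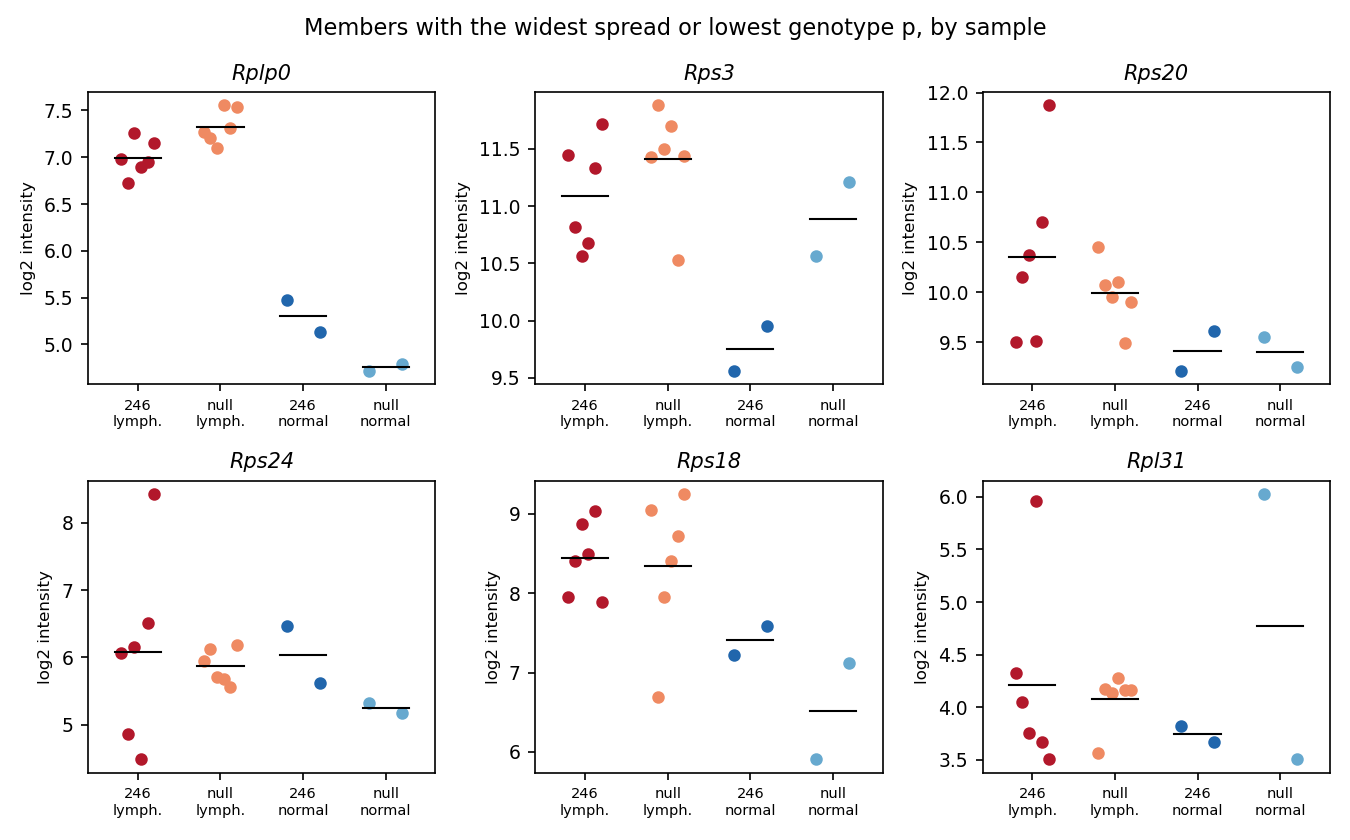
Level (log2 intensity, vertical axis, each panel with its own scale) of 6 ribosomal protein genes in every sample, grouped as p53-246 and p53-null lymphomas and p53-246 and p53-null normal cells; bars are group means. The highest values of Rps24 (8.43) and Rps20 (11.87) were both in p53-246 lymphoma 6, and Rpl31 was high in single samples (5.96 and 6.03).

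The arrays themselves differed. The SD of all gene levels on an array was 1.56 in p53-246 lymphoma 6 and 1.57 in p53-null normal sample 1, called narrow arrays here, against 1.69 to 1.94 in the other 14; the receptor background on these 2 arrays was 4.43 and 4.21, against 3.66 to 4.08. The members' median level per array was 7.20 to 8.35 in lymphomas and 6.03 to 6.87 in normal cells. Without the narrow arrays only 1 p53-null normal sample was left. The genes called higher in p53-null cells only, Rpl22, Rpl4 and Rps18, then differed there by 0.65, 0.92 and 1.23 and were no longer called. These are the same differences as without p53-null normal sample 1 alone. With all arrays the differences of these genes were 0.67, 1.14 and 1.83. No B cell marker measured lay under the background level in both cell types, and Cd79b averaged 11.08 in lymphomas and 12.04 in normal cells. Of 7 B cell markers 6 fell, where 17.8% of all genes did, with a median difference of -1.32 and a lowest of -2.59. Their summed level was 57.1 to 65.6 in lymphomas and 69.5 to 72.7 in normal cells.

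Many markers of other cells moved with cell type too. Of all genes tested 20.4% rose and 17.8% fell, and the T cell and erythroid counts did not exceed these shares. Neutrophil markers rose in 6 of 10 genes, with a summed level of 62.5 to 72.3 in lymphomas and 47.1 to 62.1 in normal cells, and with Elane and Mpo under the background level in both. Macrophage markers fell in 6 of 8 (37.5 to 49.3 in lymphomas, 51.5 to 56.9 in normal cells, with Mertk, Cd14 and Fcgr1 under the background level in both), natural killer markers in 4 of 5 (20.8 to 24.8 and 24.7 to 29.5, Ncr1, Prf1 and Eomes), platelet markers in 4 of 5 (20.5 to 23.9 and 27.6 to 33.4, Itga2b, Gp9 and Gp5) and dendritic markers in 2 of 5 (23.0 to 26.5 and 27.6 to 28.7, Zbtb46). T cell markers fell in 1 of 9 (41.9 to 56.0 and 42.5 to 53.5, with Cd3d, Cd3g, Cd4, Cd28 and Zap70 under the level), plasma cell markers in 2 of 5 (23.9 to 27.0 and 26.8 to 27.8, Sdc1, Prdm1 and Tnfrsf17), and of 5 erythroid markers only Tfrc, the transferrin receptor that dividing cells also carry, rose (29.3 to 32.1 and 27.4 to 28.9, Klf1, Epor and Slc4a1). In each pair lymphomas come first. The part of these cells in the ribosomal protein values was not tested.

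Other genes of translation were read from the same contrast of lymphoma with normal cells, beside the 9 higher and 0 lower of 19 cytosolic ribosomal protein genes (median 0.59) and the 20.4% higher and 17.8% lower of all genes. Of 68 mitochondrial ribosomal protein genes, 61 rose and 0 fell (median 1.05), led by Mrpl50 at 2.57 and Mrpl13 at 2.27. Of 35 measured genes of ribosome biogenesis and polymerase I, 35 rose (median 1.60), with Wdr12 at 2.60 (SE 0.21), Polr1b at 2.49 (SE 0.17, normal mean under the background level, at least 4.85-fold from that level), Nhp2 at 2.12 and Gnl3 at 2.10. Chaperones that escort single ribosomal proteins, several known from yeast, rose in 7 of 8 (median 0.87): Heatr3, which with its yeast counterpart carries the 5S ribonucleoprotein proteins, was at 1.57, Tsr2, the escort of Rps26, at 1.44, Bccip at 0.92 and Ltv1 at 0.89.

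In a list of elongation and release factors and genes named with them, 9 of 11 rose (median 0.63). The highest value, 2.12, was that of Eef1e1, known as a scaffold of the tRNA synthetase complex and not as an elongation factor. The release factors Etf1 and Gspt1 had 1.96 and 1.39, and the recycling factor Abce1 had 1.32. Eef2k, counted among the 9, encodes a kinase that inhibits elongation. Genes with a pyrimidine-rich start or a snoRNA host role rose in 8 of 12 (median 0.44), with the poly(A) binding protein gene Pabpc1 and Eif3h at 0.84 each, Eef1d at 0.63 and Nap1l1 at 0.61, while the snoRNA host Gas5, also singled out after its values were seen, stood at 0.12 (adjusted p = 0.513). In the mTORC1 list 7 of 11 rose (median 0.63), with Larp1 at 1.74 (SE 0.12), Rheb at 1.05, Eif4ebp2 at 0.85 and Mlst8 at 0.69. Of the ribosomal components outside the symbol form, Rpsa, the small subunit protein also known as a laminin receptor, rose by 1.74 (SE 0.26) and the biogenesis factor Rpl7l1 by 0.77. No list had a member past the threshold between the lymphoma genotypes, as no gene did.

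**Figure D5:**
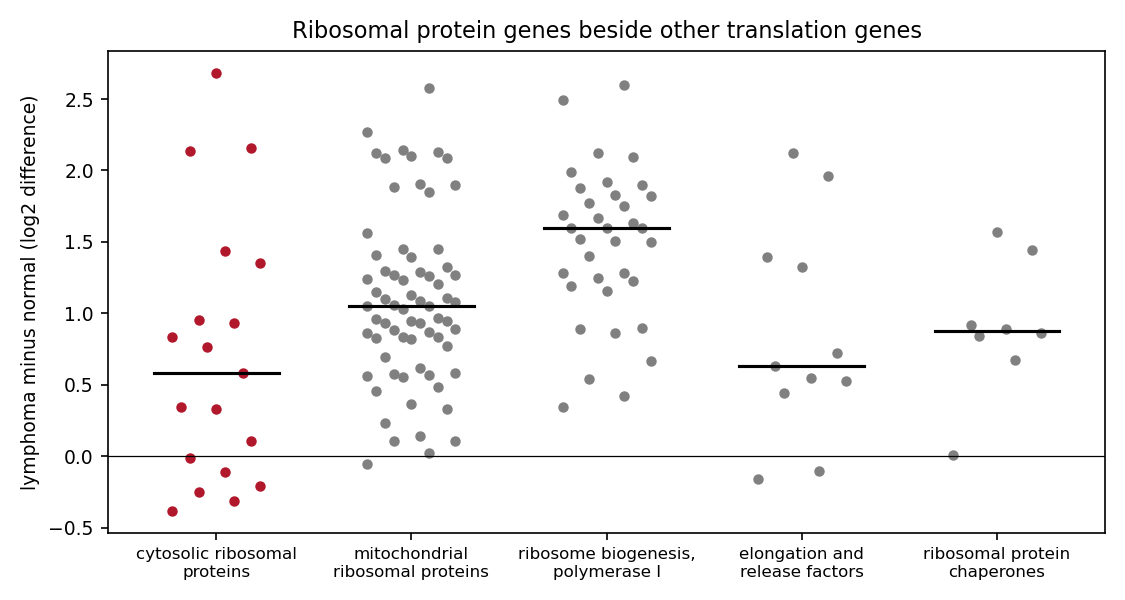
Log2 difference between lymphoma and normal cells (vertical axis) of each gene in 5 groups, with 1 point per gene and a bar at the median. Medians were 0.59 for the 19 cytosolic ribosomal protein genes, 1.05 for 68 mitochondrial ribosomal protein genes, 1.60 for ribosome biogenesis, 0.63 for elongation and release factors and 0.87 for ribosomal protein chaperones.

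The 33 transcript clusters with several symbols, in a fit of the whole table of 23332, included 13 that rose and 7 that fell in lymphoma over normal cells, where 16.1% and 17.7% of all clusters did. Their differences ran from -1.05 to 2.07 with a median of 0.23, and 10 of the 33 had a mean under the background level. Between the genotypes 0 of the 33 passed in lymphomas and 0 in normal cells, and since the fused symbols can name an unrelated gene, a direction here cannot be given to a ribosomal protein.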

How the data were processed

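RNA of 16 samples was hybridised to Affymetrix exon arrays, 1 array per sample. The deposited table holds the authors' processed values, read here as log2 intensities: they run from 2.51 to 13.5, and natural logarithms would put the highest at 726214. No source used here gives the log base or the summary, background and normalization steps. The submitters' processing notes list Partek 6.5 and build mm8 without a role. Symbols came from the platform annotation: 14996 of 23332 transcript clusters have 1 symbol, 1019 several and 7317 none. Gene IDs of 14941 single-symbol clusters, all 19 members among them, matched RefSeq (GRCm38.p6), used for names and promoter sequences only.

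Each gene was read at its brightest single-symbol transcript cluster, giving 14860 genes. Group means were fitted to all 16 arrays with limma 3.58.1 in R 4.3.3, contrasts were moderated by empirical Bayes, and two-sided p-values were adjusted over all genes (Benjamini-Hochberg, threshold 0.05); SE is the moderated standard error. The number of arrays limits the precision. The code was tested on simulated data. Members and lists were chosen with earlier results of these data known. All 19 members are named; of the other lists, up to 4 genes per direction with the largest differences past the threshold, and markers. Same-numbered samples of different genotypes were checked as pairs: deviations correlated at -0.31 to 0.33 between lymphomas and 0.07 between normal samples, so no pairing was used. Alternatives covered scaling, array spread and weights, dim genes, cluster choice, moderation, a replicate block and each sample left out. No arrays held identical values. Tables and figures were made in Python 3.11.15 with pandas 2.3.3 and matplotlib 3.10.9.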

Additional observations from a re-analysis of the deposited data

Results flagged for a closer look

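Rpl31 in p53-246 lymphoma 4 was 5.96, far above the next sample of its group at 4.33. Rpl31 in p53-null lymphoma 1 was 3.57, below the next at 4.14, with both values under the background level of 5.17. Rps3 in p53-null lymphoma 5 was 10.53, below the next at 11.43. These are the 3 samples that stand apart from their group of 6 by Dixon's test (gap over range above 0.625) among 38 combinations of gene and lymphoma group. Chance alone flags about 1 in 20 groups.

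The genotype differences of Rplp0 had opposite signs, -0.33 in lymphomas and 0.55 in normal cells, and neither passed the threshold (adjusted p = 0.994 and 0.999 in limma). Of the 4 normal values, 3 lay under the background level. Every p53-246 lymphoma lay below the p53-null lymphoma mean and both p53-246 normal samples above the p53-null normal mean. The interaction was -0.88 and did not pass the threshold (unadjusted p = 0.00126, adjusted p = 0.997 in limma).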

How the results depend on the processing

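Results were recomputed under 26 alternatives, 16 of which leave out 1 sample. Of the 9 genes higher in lymphoma, 7 were called higher in every alternative: Rps27l, Rpl37, Rplp0, Rpl10a, Rpl8, Rpl22 and Rps3. Rpl4 was lost in 2 alternatives and Rps18 in 1, the replicate block (1.06, adjusted p = 0.119). The count of higher genes was 8 to 11 and of lower genes 0 to 1 with single samples left out. With array weights 20.3% of all genes rose in p53-246 cells (14.5% as reported) and 13.1% in p53-null cells (17.5% as reported). The count of higher members in p53-246 cells was 5 to 7 with single samples left out, and 10 with array weights. In p53-null cells it was 4 to 8, with 4 under array weights and 5 without the narrow arrays, and lower genes numbered 0 to 2. The lower call in p53-null cells, that of Rpl39l, was 0 with centred arrays, array spread as a covariate, array weights, no narrow arrays, dim genes left out or a replicate block. Between the genotypes in normal cells and for the interaction the count was 0 to 1, the 1 being Rpl39l without p53-null normal sample 2, a fit with 1 sample left in that group. The members' median difference was 0.54 to 0.68 with single samples left out. It was 0.88 with dim genes left out. That fit drops Rpl31, Rpl35a, Rpl39l, Rpl3l and Rps15, whose means over all arrays lay under the background level. In that fit the median over all remaining genes was 0.16. The sign changed in 19 single-gene values, all of differences that were not called. For lymphoma minus normal, Rps9 (-0.01) was 0.12 with centred arrays, 0.035 with quantile normalization, 0.026 without the narrow arrays, 0.044 with the replicate block and -0.076 to 0.050 with single samples left out. Rpl31 (-0.11) was 0.019 with centred arrays, 0.59 without the narrow arrays and -0.74 to 0.52 with single samples left out. Rpl35a (0.11) was -0.17 with array spread as a covariate and -0.16 to 0.37 with single samples left out. Between genotypes in normal cells, Rpl39l was 0.014 and Rpl31 0.24 without the narrow arrays; with single samples left out Rps27l was -0.051 to 0.59, Rpl39l -1.13 to 0.014 and Rpl31 -2.28 to 0.24. The Rpl31 interaction was -0.11 to 2.41. With the replicate number as a block, 9 genes rose and 0 fell in lymphoma, 6 in p53-246 and 7 in p53-null cells, and Rpl23 was gained (0.47, adjusted p = 0.0305); same-numbered samples share only a number. Of 1340 single-gene values, 28 lost a call and 16 gained one, and the causes were not tested.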

Other observations

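Among members that laboratories use as reference genes for PCR, Rplp0 and Rps18 were higher in lymphoma and Rps9 did not pass the test. Rplp0 was at 2.13 (95% interval 1.89 to 2.37), Rps18 at 1.43 (0.67 to 2.19) and Rps9 at -0.01 (-0.23 to 0.20) for lymphoma minus normal cells on the log2 scale. The normal mean of Rplp0 lay under the background level, and counted from that level its difference was at least 1.99. The Rps18 call was lost with the replicate block (1.06, adjusted p = 0.119, limma).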
